A study of Mus musculus with 14 samples.

Results

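Genes of MHC class I and class II antigen presentation were followed in the lymphatic endothelium of the mouse lymph node. The 32 genes were taken by name from 34797 genes on the array, each by the probe with the highest mean signal over all arrays. They comprise 7 class I and class I-like molecules, 12 genes that make and load class I peptides, 10 class II molecules and their loading factors, and 3 transcriptional regulators. The 14 samples came from lymph nodes of C57Bl/6 mice, with no genetic change or treatment given in the labels, and age was not given. The groups were 5 medullary sinus and 5 subcapsular sinus samples of 50 cells each, cut out of CD31- and F4/80-stained frozen sections by laser-capture microdissection (LCM), and 2 medullary sinus and 2 subcapsular sinus samples of 1200 cells each, sorted by fluorescence (FACS) from digested nodes, using antibodies to lineage antigens, to CD73 and to podoplanin and 7-AAD to leave out dead cells. Each sample was hybridised to its own 1-colour Agilent array. The LCM nodes were inguinal, axillary and brachial, whereas the sorted cells came from a wider set that included mesenteric nodes. The labels call the samples biological replicates and do not tie them to animals, so the p-values measure the spread between these samples only.

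Class I molecules pair a heavy chain with beta-2-microglobulin and show peptides that the proteasome has cut and the TAP transporter has carried into the endoplasmic reticulum. Class II molecules are alpha and beta chains that travel with the invariant chain Cd74 and receive endosomal peptides with the help of H2-DM, which H2-DO inhibits. Lymph node lymphatic endothelial cells are known to present peripheral-tissue antigens on class I and to carry class II molecules that are partly their own and partly acquired from dendritic cells. The arrays measure RNA and not surface protein.

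All values below are log2 signals over the 75th percentile of the array, so a gene is compared with itself between groups and not with other genes. Of the 32 genes, 24 were well above background by the scanner software's call on all 14 arrays, and the other 8 (H2-M3, Tap1, Psme1, Calr, Canx, H2-Oa, Mr1 and Rfx5) were not on at least 1 array. The labelled cell type was checked against its markers. Prox1, the transcription factor of lymphatic fate, was above background on all 14 arrays and lay between −4.37 and −0.30. Lyve1 was above background on 3 of 5 medullary LCM, 3 of 5 subcapsular LCM, 0 of 2 medullary FACS and 1 of 2 subcapsular FACS arrays. Of 8 lymphatic endothelial genes matched by name, 5 to 8 were above background on medullary LCM and 3 to 6 on subcapsular LCM arrays. On medullary FACS arrays 4 to 5 were, and on subcapsular FACS arrays 5 to 6. Their sums, in multiples of the 75th percentile, were 1.206 to 1.795 in medullary and 16.57 to 39.42 in subcapsular FACS samples. In LCM samples the sums were 17.38 to 44.95 in medullary and 7.037 to 114.7 in subcapsular ones. Leukocyte genes were present in every group, and Cd79a, a chain of the B cell receptor complex, averaged 4.24 on medullary LCM, 5.72 on subcapsular LCM, 3.76 on medullary FACS and 5.67 on subcapsular FACS arrays. The share of all probes above background was 67.37% to 75.32% on medullary LCM and 50.78% to 69.04% on subcapsular LCM arrays (two-sided exact permutation test, p = 0.0238).

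Some of the probes could read more than 1 gene, and their sequences are shown for that reason. The probe for H2-K1, a classical class I heavy chain (mm9 chr17:34133984-34134043, minus strand), and the probe for H2-T23, the heavy chain of the non-classical molecule Qa-1 (mm9 chr17:36167338-36167574, minus strand, spanning more than the probe's 60 bases of genome), share a run of 29 bases, set in capitals.
H2-K1: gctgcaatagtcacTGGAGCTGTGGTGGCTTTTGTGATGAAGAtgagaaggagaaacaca
H2-T23: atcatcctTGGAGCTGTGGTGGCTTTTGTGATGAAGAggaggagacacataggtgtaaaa
No other pair of member probes shared 15 or more bases. The probe for Ciita, the coactivator that switches on class II genes, shared at least 20 bases with probes of 3 other genes. Of its bases 65% were A, against at most 41.7% in the other member probes.
The probes for Tap1, a subunit of the peptide transporter (mm9 chr17:34330854-34330913, plus strand), and Psmb9, a catalytic subunit of the immunoproteasome (mm9 chr17:34319174-34319233, minus strand), carry the largest class I loading differences between sinuses in FACS, though not in LCM, and shared no run of 15 bases with a probe of another gene.
Tap1: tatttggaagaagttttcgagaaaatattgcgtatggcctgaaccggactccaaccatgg
Psmb9: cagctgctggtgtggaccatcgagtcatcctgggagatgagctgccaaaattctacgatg
Whether a probe bound RNA of a second gene was not tested.

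**Figure D1:**
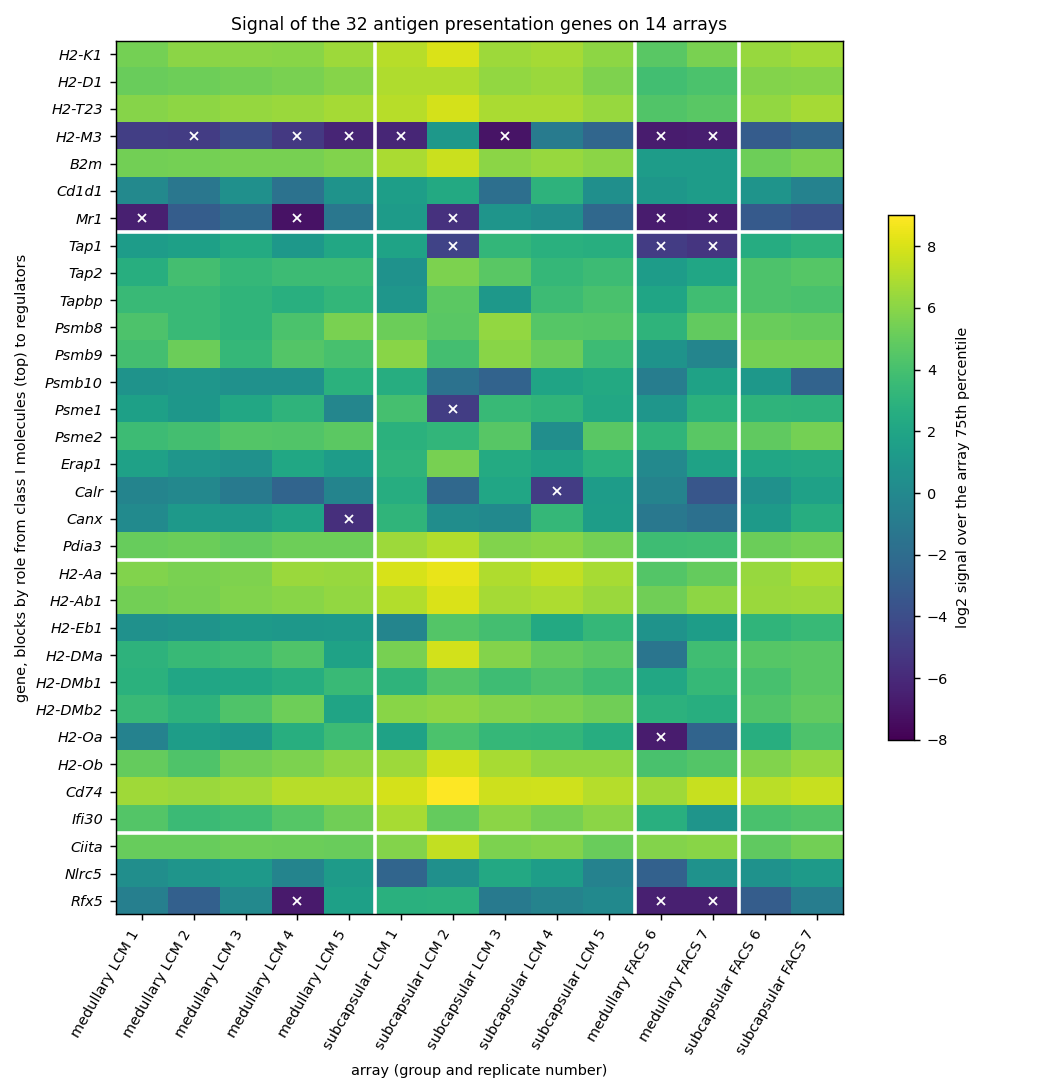
Log2 signal over the array's 75th percentile (colour) of the 32 genes (rows, in blocks by role) on the 14 arrays (columns, by group and replicate number), with a white cross where the probe was not well above background. Tap1, H2-M3, Mr1 and Rfx5 carry crosses on both medullary FACS arrays and on neither subcapsular FACS array.

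In the dissected cells, class II genes were lower in the medullary than in the subcapsular sinus for 10 of 10 genes, with a median difference of −1.48, but none passed the test, where 0.175% of all genes tested did. The sinuses did not overlap for 5 of the 10, where 2.06% of all genes tested were lower without overlap. H2-Aa, the class II alpha chain, read 5.77, 5.61, 5.73, 6.43 and 6.41 on the medullary LCM arrays, against 7.95, 8.46, 6.95, 7.42 and 6.75 on the subcapsular LCM arrays. Every medullary value lay below every subcapsular one, a difference of −1.51 (SE 0.50, 2.85-fold, limma adjusted p = 0.303). H2-Ab1, the beta chain, differed by −1.24 (SE 0.48, limma adjusted p = 0.367) without overlap, and a second probe at an overlapping position gave −1.25. H2-DMa, a chain of the peptide-exchange factor H2-DM, read 2.99, 3.43, 3.68, 4.34 and 1.78 in medullary and 5.49, 7.86, 5.87, 5.00 and 4.63 in subcapsular LCM samples. The groups did not overlap, and the difference of −2.53 (SE 0.72, 5.78-fold) had the lowest p of the class II genes (limma adjusted p = 0.24). H2-DMb2, a beta chain of H2-DM, read 3.51, 2.96, 4.35, 5.25 and 1.92 in medullary and 5.99, 6.17, 5.84, 5.66 and 5.31 in subcapsular LCM samples, which also kept apart (difference −2.20, SE 0.64, limma adjusted p = 0.248).

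Of the other class II genes, H2-Ob did not overlap and the rest did. H2-Ob, a chain of the inhibitor H2-DO, differed by −1.44 (SE 0.54, limma adjusted p = 0.355) with no overlap, and its other probes, both dim, gave −2.99 and 0.09. Its partner H2-Oa differed by −1.33, H2-DMb1 by −1.21 and H2-Eb1, the beta chain of I-E, by −1.77, and each of these overlapped between the sinuses. Cd74, the invariant chain, read 6.58, 6.43, 6.66, 7.16 and 7.18 in medullary and 7.89, 8.96, 7.71, 7.79 and 7.14 in subcapsular LCM samples. Only medullary replicates 4 and 5 reached the lowest subcapsular value, and the difference was −1.10 (SE 0.48, limma adjusted p = 0.416). Ifi30, the thiol reductase GILT that opens disulphide bonds in endosomes, read 4.42, 3.61, 3.81, 4.55 and 5.30 in medullary and 6.78, 5.00, 6.05, 5.51 and 6.03 in subcapsular LCM samples, with 1 medullary array above the lowest subcapsular one (difference −1.54, SE 0.53, limma adjusted p = 0.323).

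Class I molecules were lower in medullary LCM samples for 7 of 7 genes (median −1.04), and none passed the test. B2m, the shared light chain of class I, read 5.40, 5.48, 5.51, 5.51 and 5.77 in medullary LCM samples, against 6.82, 7.62, 6.03, 6.37 and 6.02 in subcapsular LCM samples. These groups did not overlap, the medullary values were close together, and the difference was −1.04 (SE 0.47, limma adjusted p = 0.427). H2-D1, the other classical heavy chain, read 5.12, 5.25, 5.41, 5.57 and 5.92 in medullary and 6.96, 6.96, 6.22, 6.45 and 5.69 in subcapsular LCM samples. It overlapped by 1 array on each side (difference −1.0, SE 0.46, limma adjusted p = 0.429). H2-K1 differed by −0.90 and H2-T23 by −0.75, and the second H2-K1 probe, which lies apart from the shared run, gave −0.65. H2-M3, which presents formylated peptides, Mr1, which presents vitamin B metabolites, and Cd1d1, which presents lipids, differed by −1.95, −2.97 and −1.42 with SE of 1.41, 1.56 and 0.91. All 3 overlapped widely, and H2-M3 cleared background on 2 of the 5 medullary arrays and on 3 of the 5 subcapsular ones.

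Genes that supply class I peptides differed less and in both directions, with 8 of 12 lower in medullary LCM samples and a median of −0.37. Erap1, the aminopeptidase that trims peptides in the endoplasmic reticulum, read 1.74, 0.93, 0.58, 2.13 and 1.37 in medullary and 3.04, 5.51, 2.42, 1.79 and 2.76 in subcapsular LCM samples (difference −1.75, SE 0.71, limma adjusted p = 0.388), with 1 subcapsular array inside the medullary range. Pdia3, the disulphide isomerase of the loading complex, read 5.07, 5.20, 4.91, 5.26 and 5.27 in medullary and 6.51, 7.05, 5.80, 5.95 and 5.45 in subcapsular LCM samples. It did not overlap, with a difference of −1.01 (SE 0.46, limma adjusted p = 0.434). The immunoproteasome subunits Psmb8 and Psmb9 differed by −0.87 and −0.78, and Psmb10, which completes the set, by 0.60. Tap1 differed by 0.55, Tap2 by −0.13 and tapasin (Tapbp), which bridges TAP and class I, by 0.33, each with an SE larger than the difference. Psme2, an activator subunit of the proteasome, had the highest value at 1.06 (SE 0.79), but its other probes gave −0.48 and −0.96. Its partner Psme1 differed by −0.05, and the chaperones calreticulin (Calr) and calnexin (Canx) by −0.61 and −1.94 with SE of 1.37 and 1.38.

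Of the regulators, Ciita differed by −0.86 (SE 0.52) and Nlrc5, the class I coactivator, by 0.43 (SE 0.85), where a second Nlrc5 probe gave −0.57. Rfx5, a subunit of the factor that binds the X box of class I and II promoters, read −0.64, −2.81, 0.02, −6.75 and 1.67 in medullary and 2.82, 2.87, −0.98, −0.41 and 0.09 in subcapsular LCM samples (difference −2.58, SE 1.49). A second Rfx5 probe of similar signal gave 1.13, so the gene has no settled direction here.

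Over all 32 genes the LCM median was −1.07 with 27 lower, against a median of 0.08 for the 27383 genes tested. None of the 32 was called at a limma adjusted p under 0.05. The groups did not overlap for 7 genes that were lower (21.9%) and for 0 that were higher, where 1.03% of all genes tested were higher without overlap. Of the 9 genes with an unadjusted limma p under 0.05, all were lower, and 8 of them were class II genes. Over all genes tested, 11.7% had such a p, 3203 genes of which 1318 were lower. With slide 1 alone, which holds medullary replicates 1 to 3 and all subcapsular LCM arrays, the median of the 32 was −1.27. With slide row as a block it was −0.85. In both, 0 of the 32 were called, where 248 and 14 of all genes tested were. On slide 1, subcapsular replicates 1 to 4 lay on row 1, and subcapsular replicate 5 and the medullary arrays on row 2. Slide 1 alone therefore hardly tells sinus from row.

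**Figure D2:**
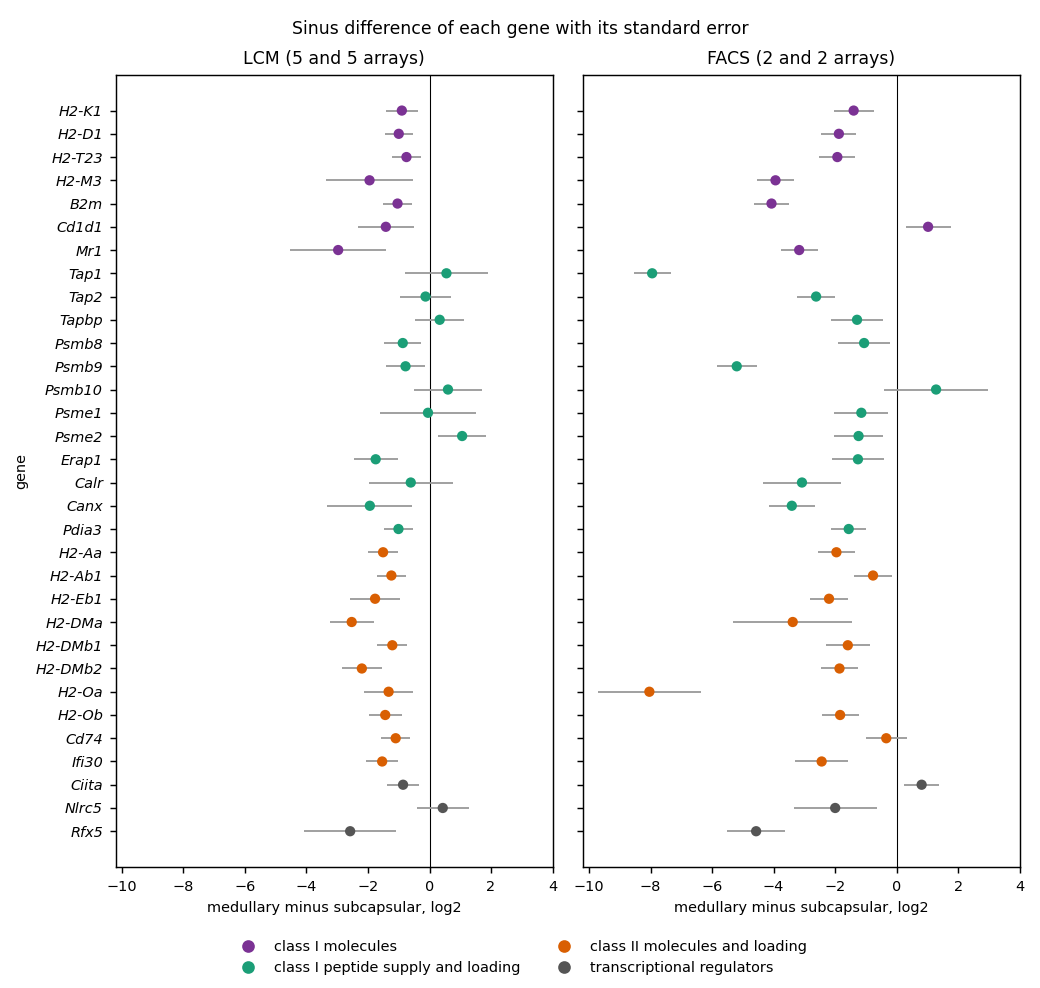
Medullary minus subcapsular difference (log2) with its standard error (bars) for each of the 32 genes, coloured by role, in LCM (left, n = 5 per sinus) and FACS (right, n = 2 per sinus). All class II points lie left of 0 in both panels, and Tap1, Psmb9, B2m and H2-Oa lie far to the left in FACS only.

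Markers of leukocytes were lower in the same LCM samples, and in bulk samples fewer cells of a type and less RNA per cell cannot be told apart. The summed signal of 4 pan-leukocyte genes (Ptprc, Coro1a, Laptm5 and Cd53), in multiples of the 75th percentile, was 40.2 to 64 on medullary LCM and 75 to 351 on subcapsular LCM arrays, and 4 of 4 were lower. Of 8 B cell genes 7 were lower, with sums of 93 to 175 in medullary and 212 to 640 in subcapsular LCM samples, and 7 of the 8 were above background on every LCM array. Of 8 macrophage genes matched by name 8 were lower, with sums of 73 to 165 in medullary and 312 to 1315 in subcapsular LCM samples. Dendritic cell genes were lower for 3 of 8, with sums of 54.2 to 60.3 in medullary and 45.5 to 165 in subcapsular LCM samples, and their marker Itgax was not above background on any LCM array. T cell genes were lower for 2 of 8, with sums of 25.8 to 36.9 in medullary and 20.3 to 88.6 in subcapsular LCM samples. Blood endothelial and high endothelial venule genes were higher for 6 of 6, with sums of 205 to 321 in medullary and 31.1 to 158 in subcapsular LCM samples, and Fut7 and Chst4 among them were called (limma adjusted p = 0.00386 and 0.0472). Of 8 lymphatic endothelial genes 5 were lower in medullary LCM samples and 3 higher (median −0.62, range −2.94 to 2.31). Of 15 housekeeping genes 13 were lower, with a median of −0.82. The part of these cell types in the antigen presentation signal was not tested.

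**Figure D3:**
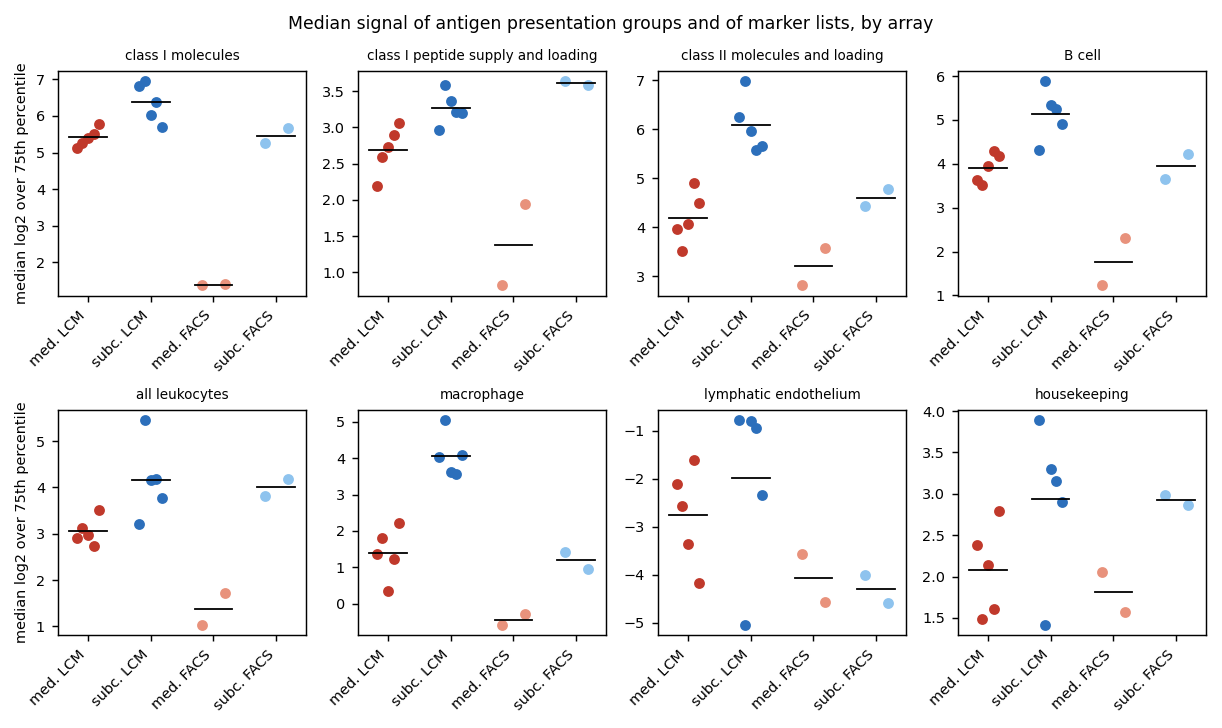
Median log2 signal over the 75th percentile of the class I, peptide loading and class II genes and of 5 other lists on each array (points), by group, with group means (bars). The class II and pan-leukocyte medians lie lowest on medullary FACS replicate 6 and highest on subcapsular LCM replicate 2.

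In the sorted cells, 6 of 7 class I genes (median −1.93), 11 of 12 peptide supply genes and 10 of 10 class II genes were lower in the medullary sinus, and B2m, Tap1 and Psmb9 had larger differences than H2-K1, H2-D1 and H2-T23. Of the 32 genes, 29 were lower, and the median was −1.91 against 0.74 for the 27668 genes tested. With 2 arrays per sinus limma called 0% of all genes tested and thus none of the 32, the smallest adjusted p of any gene being 0.0645, while 31.9% of all genes and 16 of the 32 had an unadjusted p under 0.05. The groups did not overlap for 27 genes that were lower (84.4%), where 26.7% of all genes tested were, and for 2 that were higher (6.25%), where 43% were. The 2 higher genes were Ciita and Cd1d1. Among the lower ones, Tap1, H2-M3, Mr1, Rfx5 and H2-Oa entered the test only because both subcapsular FACS arrays were above background. For these genes a lower medullary reading was largely fixed by that filter.

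Tap1 showed the largest class I difference in sorted cells. It read −4.96 and −5.39 on the medullary FACS arrays, both not well above background, against 2.51 and 3.04 on the subcapsular FACS arrays. With the main processing the signal was at least 169-fold lower in medullary FACS samples (limma adjusted p = 0.0645). The bound took the lowest signal called above background on those arrays and depends on the processing. Over 16 alternative settings the Tap1 difference ran from −8.93 to −4.81. Tap2, the other transporter subunit, read 1.41 and 2.08 in medullary and 4.22 and 4.51 in subcapsular FACS samples, which kept apart by less (difference −2.62, SE 0.61, limma adjusted p = 0.105). Psmb9 read 0.72 and −0.25 in medullary and 5.47 and 5.42 in subcapsular FACS samples (difference −5.20, SE 0.65, 36.8-fold, limma adjusted p = 0.0655). Its dimmer second probe gave −1.07, and Psmb8, which replaces another catalytic subunit, differed by −1.06 (SE 0.85). Within each array, which removes the scale, Psmb9 minus Psmb8 was −5.14 and −2.34 in medullary FACS samples, 0.35 and 0.46 in subcapsular FACS samples and between −1.49 and 1.69 on all LCM arrays.

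B2m read 1.37 and 1.41 on the medullary FACS arrays and 5.26 and 5.67 on the subcapsular FACS arrays. The difference was −4.07 (SE 0.57, 16.8-fold, limma adjusted p = 0.0692), and no array of any other group lay below 5.26. The differences of H2-K1, H2-D1 and H2-T23 were smaller, with H2-D1 at 3.83 and 4.21 in medullary and 5.87 and 5.94 in subcapsular FACS samples (difference −1.88, SE 0.57, limma adjusted p = 0.134). H2-T23 read 4.41 and 4.67 in medullary and 6.25 and 6.70 in subcapsular FACS samples (difference −1.93), and H2-K1 differed by −1.40. B2m minus the mean of H2-K1, H2-D1 and H2-T23 within an array was −3.41 to −2.91 in medullary FACS samples, −0.91 to −0.75 in subcapsular FACS samples, −0.59 to −0.09 in medullary LCM samples and −0.50 to −0.02 in subcapsular LCM samples. The light chain probe and these 3 heavy chain probes thus differed unequally in the sorted medullary cells. These within-array pairs were chosen after their values were seen. H2-M3 was not above background on either medullary FACS array and read −3.07 and −2.37 on the subcapsular ones (limma adjusted p = 0.0738). The main processing put the lower bound of this gap at 3.74-fold. Over 16 alternative settings the H2-M3 difference ran from −4.45 to −0.48, so the bound depends on the processing. Mr1, likewise not above background on either medullary FACS array, had a lower bound of 2.2-fold with the main processing. Cd1d1 read 0.99 and 1.40 in medullary against 0.82 and −0.47 in subcapsular FACS samples.

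**Figure D4:**
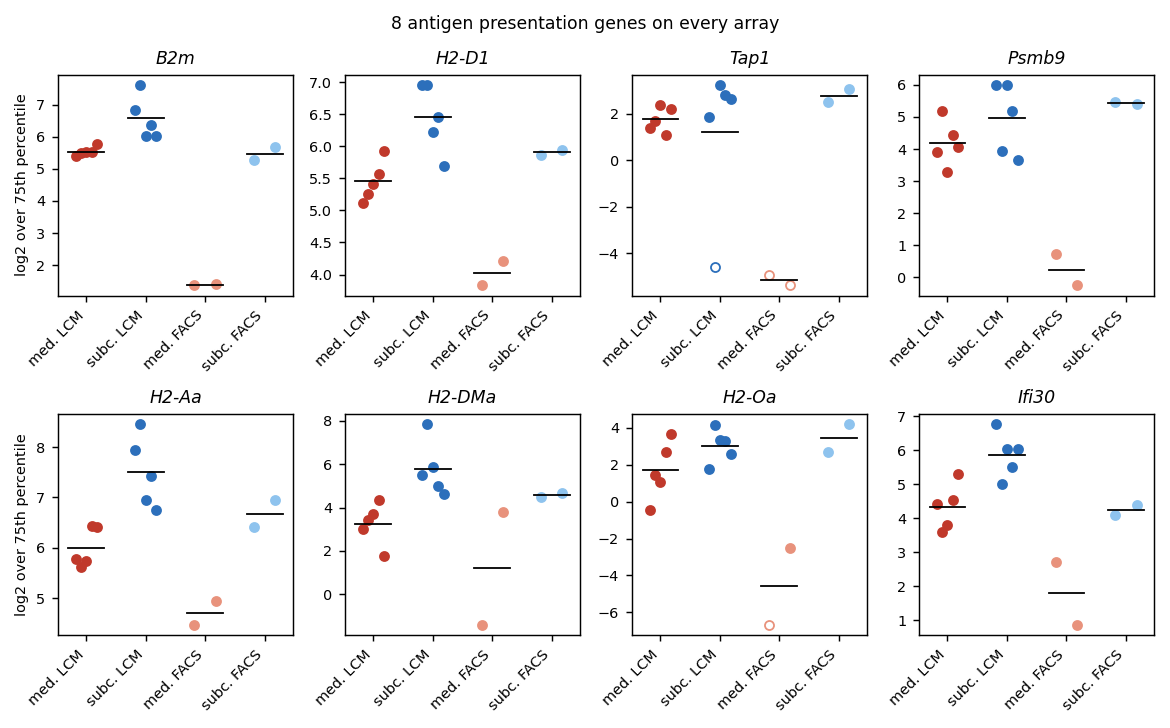
Log2 signal over the 75th percentile of B2m, H2-D1, Tap1, Psmb9, H2-Aa, H2-DMa, H2-Oa and Ifi30 on every array (points, open where not well above background) with group means (bars). The medullary FACS arrays lie below all other arrays for each of these genes except H2-DMa, and Tap1 was not well above background on either.

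Over all 12 peptide supply genes in sorted cells, those above included, 11 were lower (median −1.42), the exception being Psmb10 at 1.28 (SE 1.69). The chaperones Canx and Calr differed by −3.41 (SE 0.75, limma adjusted p = 0.101) and −3.08 (SE 1.27), and Pdia3, at 3.71 and 3.80 in medullary and 5.16 and 5.46 in subcapsular FACS samples, by −1.56. Tapbp, Psme1, Psme2 and Erap1 differed by −1.29 to −1.15, with medullary replicate 7 closer to the subcapsular arrays than replicate 6 for each. The other Psme2 probes gave 1.55 and −1.28, so Psme2 has no settled direction here.

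Class II genes were lower in medullary FACS samples for 10 of 10 genes (median −1.91), but unevenly. H2-Oa read −6.68, not well above background, and −2.52 in medullary FACS samples, against 2.67 and 4.22 in subcapsular FACS samples (difference −8.04, SE 1.67, limma adjusted p = 0.0963). H2-Aa read 4.47 and 4.95 in medullary and 6.41 and 6.94 in subcapsular FACS samples, without overlap (difference −1.96, SE 0.60). H2-Eb1 read 0.72 and 1.47 in medullary and 3.13 and 3.46 in subcapsular FACS samples (difference −2.20, SE 0.62, limma adjusted p = 0.127). H2-DMa rests on 1 array, with −1.41 and 3.81 in medullary and 4.49 and 4.68 in subcapsular FACS samples (difference −3.38, SE 1.94). H2-Ab1 differed by −0.77 (SE 0.62), and Cd74 read 6.56 and 7.58 in medullary and 7.27 and 7.54 in subcapsular FACS samples, which overlapped (difference −0.34, SE 0.66). H2-DMb2, H2-DMb1 and H2-Ob differed by −1.86, −1.59 and −1.84. Ifi30 read 2.73 and 0.87 in medullary and 4.10 and 4.38 in subcapsular FACS samples (difference −2.44, SE 0.86).

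Of the regulators in sorted cells, Rfx5 was not above background on either medullary FACS array and read −3.01 and −0.82 on the subcapsular ones. With the main processing it was at least 6.53-fold lower, but its other probe gave 3.96. Over 16 alternative settings the Rfx5 difference ran from −5.66 to −0.3. Nlrc5 read −2.75 and 0.68 in medullary and 0.68 and 1.25 in subcapsular FACS samples (difference −2.00, SE 1.35), and its second probe gave 0.09. Ciita read 5.86 and 5.98 in medullary and 4.83 and 5.39 in subcapsular FACS samples (difference 0.81, SE 0.58). The class II coactivator's probe, which is rich in A and shares bases with other probes, thus had a difference of opposite sign to those of the class II genes. Whether it read Ciita alone was not tested.

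Leukocyte genes were also lower in these medullary FACS samples. The 4 pan-leukocyte genes summed to 16.6 and 17.2 in medullary and 107.3 and 137.4 in subcapsular FACS samples, with Cd53 not above background in the medullary ones. The 8 B cell genes were all lower, with sums of 40.4 to 107.5 in medullary and 172 to 275 in subcapsular FACS samples, although B220 was among the antigens of the lineage cocktail. Macrophage genes were lower for 4 of 8, with sums of 71.8 to 114 in medullary and 93.3 to 111 in subcapsular FACS samples. Dendritic cell genes were lower for 5 of 8, with sums of 71.9 to 87.8 in medullary and 50.3 to 51 in subcapsular FACS samples, and Itgax was above background on neither medullary and both subcapsular FACS arrays. Of the 15 housekeeping genes 13 were lower in medullary FACS samples, with a median of −1.34 and sums of 208.6 to 309 in medullary and 467.1 to 504.1 in subcapsular FACS samples. Without overlap 9 were lower and 1 was higher, where 26.7% and 43% of all genes tested were. Of 8 lymphatic endothelial genes matched by name, 4 were lower and 4 higher in medullary FACS samples (median 0.78, range −8.22 to 4.33). The lowest of them, Pecam1, which encodes CD31, read −3.60 on average in medullary and 4.62 in subcapsular FACS samples. The part of these cells in the presentation signal was not tested. All medullary FACS arrays sat on one row of slide 2 and all subcapsular FACS arrays on the other, so sinus and row cannot be told apart.

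Sorted and dissected cells were then compared over both sinuses, with the 14 arrays in 1 fit. B2m fell by 2.63 on the log2 scale in FACS relative to LCM samples (SE 0.36, 6.19-fold lower, limma adjusted p = 0.000979), and Ifi30 fell by 2.08 (SE 0.46, 4.23-fold lower, limma adjusted p = 0.0246). They were the 2 of 32 genes called (6.25%), where 3.86% of the 29692 genes tested were. For neither gene did all FACS arrays lie below all LCM arrays. In the subcapsular sinus B2m averaged 5.46 ± 0.29 (SD, n = 2) in FACS and 6.57 ± 0.67 (SD, n = 5) in LCM samples. In the medullary sinus it averaged 1.39 ± 0.03 (SD, n = 2) in FACS and 5.54 ± 0.14 (SD, n = 5) in LCM samples, a larger fall. Over the 32 genes 25 were lower in FACS, with a median of −0.68 against 0.17 for all genes tested. H2-Oa (−2.94, SE 0.81, limma adjusted p = 0.0701), Psmb9 (−1.73, SE 0.49, limma adjusted p = 0.0756) and Rfx5 (−3.79, SE 1.13, limma adjusted p = 0.094) had the next lowest p. H2-T23 and Pdia3 differed by −1.14 and −1.11, whereas Cd74 (−0.11), Ciita (−0.05) and H2-Ab1 (−0.29) were near 0.

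Markers of other cells and of the labelled cell type moved with isolation too. Of the 4 pan-leukocyte genes 3 were lower in FACS than LCM samples (median −1.36), and Ptprc and Cd53 were called (limma adjusted p = 0.0239 and 9.94e-05). Macrophage genes were lower for 8 of 8 (median −1.42), with Timd4 and Lyz2 called, and B cell genes for 8 of 8 (median −0.75), with 1 called. Genes of fibroblastic reticular cells were lower for 6 of 6 (median −2.97), with Pdgfra, Col1a2 and Cxcl13 called, and their sums were 1.841 to 5.752 in medullary FACS and 1.892 to 2.196 in subcapsular FACS samples, against 16.2 to 41.67 in medullary LCM and 74.03 to 260.9 in subcapsular LCM samples. Dendritic cell genes were lower for 4 of 8 (median 0.19), with 2 called higher. Lymphatic endothelial genes were lower for 5 of 8 (median −2.19), with 2 called lower and 3 of 8 higher. Blood endothelial and high endothelial venule genes were lower for 6 of 6 (median −1.49), with 0 called. The part of all these cell types in the lower B2m and Ifi30 signal was not tested.

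FACS arrays were all on slide 2, so isolation was set against LCM on 1 slide for the medullary sinus only. There B2m differed by −4.25 (limma adjusted p = 0.0978) and Ifi30 by −3.12 (limma adjusted p = 0.206), with 2 arrays per isolation. Without subcapsular FACS replicate 6, subcapsular FACS replicate 7 or medullary FACS replicate 7 the call of Ifi30 ended (limma adjusted p at most 0.122). That of B2m held without each of the 14 arrays in turn, with limma adjusted p between 0.000784 and 0.0133.

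The test of whether the sinus difference itself differed between isolations called Psmb9 (1 of 32 genes, 3.12%), where 1.3% of all genes tested were called. Its sinus difference was more negative in FACS by 4.43 on the log2 scale (difference of differences −4.43, SE 0.98, limma adjusted p = 0.0478), and on the LCM arrays the sinuses overlapped, at 3.91, 5.19, 3.29, 4.44 and 4.06 in medullary and 5.99, 3.95, 6.01, 5.18 and 3.67 in subcapsular samples. Leaving out any 1 of 11 arrays, of the 14, ended the call (limma adjusted p up to 0.26) and with the mean of both Psmb9 probes (−2.08, limma adjusted p = 0.446). Tap1 (−8.51, SE 1.97, limma adjusted p = 0.0532), B2m (−3.03, SE 0.72, limma adjusted p = 0.0563) and H2-Oa (−6.71, SE 1.63, limma adjusted p = 0.0602) did not pass the threshold. On the LCM arrays Tap1 read 1.40, 1.68, 2.36, 1.09 and 2.22 in medullary and 1.85, −4.58, 3.25, 2.81 and 2.65 in subcapsular samples. Without subcapsular LCM replicate 2, the library at −4.58 for Tap1, the fit gave −7.06 for Tap1 (limma adjusted p = 0.00357), −3.29 for B2m (limma adjusted p = 0.0295) and −4.17 for Psmb9 (limma adjusted p = 0.0654). That array was singled out by its own Tap1 value, so the lower adjusted p of Tap1 gives no separate support. Of the 32 genes 2 were called without subcapsular LCM replicate 2 or 3. None was called without any single medullary LCM array, or without subcapsular LCM replicate 4 or 5. Since Tap1 was not well above background on either medullary FACS array, its fitted values here have no measured size. Class II genes had a median difference of differences of −0.41 with 7 of 10 negative, and Cd74, Ciita and Cd1d1 had positive ones of 0.76, 1.67 and 2.44. The 32 genes as a whole had a median of −0.87 against 0.52 for all genes tested.

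Tap1 and Psmb9 are neighbours that start in opposite directions on mouse chromosome 17. In RefSeq (GRCm38.p6) their starts lie 226 bases apart, and the windows from 250 bases before to 50 after each start overlap by 275 bases, so 1 sequence serves both. The windows of Tap1, B2m and H2-Aa are shown because these genes carry the class I and class II differences described above. Capitals mark matches, on either strand, to TTCNNNGAA (the GAS motif of STAT factors), the ISRE motif of interferon-regulated genes (TTTC, any 2 bases, TTTC), CCAAT (the Y box of NF-Y) and TGACG (the core of the X2 box), which can overlap.
Tap1 (chr17:34187306-34187605, plus strand): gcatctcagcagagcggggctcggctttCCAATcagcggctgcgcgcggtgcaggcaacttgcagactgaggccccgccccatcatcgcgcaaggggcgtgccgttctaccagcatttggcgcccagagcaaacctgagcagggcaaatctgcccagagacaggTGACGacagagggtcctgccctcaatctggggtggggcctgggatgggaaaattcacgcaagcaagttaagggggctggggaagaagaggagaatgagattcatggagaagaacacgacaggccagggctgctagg
B2m (chr2:122147437-122147736, plus strand): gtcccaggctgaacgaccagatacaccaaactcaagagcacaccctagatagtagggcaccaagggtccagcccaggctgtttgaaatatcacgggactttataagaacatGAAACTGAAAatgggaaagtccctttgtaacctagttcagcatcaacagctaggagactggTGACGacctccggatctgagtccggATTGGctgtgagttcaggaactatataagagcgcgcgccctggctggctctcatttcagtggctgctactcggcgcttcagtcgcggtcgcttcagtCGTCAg
H2-Aa (chr17:34287774-34288073, minus strand): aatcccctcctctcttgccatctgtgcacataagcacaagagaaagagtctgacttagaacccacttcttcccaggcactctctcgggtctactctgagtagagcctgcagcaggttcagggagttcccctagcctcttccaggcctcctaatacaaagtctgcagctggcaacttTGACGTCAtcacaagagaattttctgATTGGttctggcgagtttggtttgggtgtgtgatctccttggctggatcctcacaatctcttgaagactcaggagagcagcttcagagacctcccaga
Windows of 26 of the 32 genes were searched, and a gene with more than 1 window counted where any of them held the motif. Cd74, H2-Ab1, Cd1d1, Ciita, Tap2 and Nlrc5 were not among these genes, so the motif counts say nothing about them. CCAAT or its reverse was present in 19 of 26 (73.1%) and in 7 of 8 class II genes, against 37.4% of all 32851 windows. TGACG was present in 11 of 26 (42.3%) against 20.8%, and both motifs together in 9 of 26 (34.6%) against 7.73%. The ISRE motif was present for B2m, Erap1, H2-T23 and Psme1 (15.4%) against 3.44%, and TTCNNNGAA for H2-DMb2, H2-M3 and Psmb8 (11.5%) against 8.3%. A match to letters is not a bound site, and the windows of Tap1 and Psmb9 were counted once each although they overlap.

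Other genes of the same routes were read from lists by name, none of which held a gene called between the sinuses within either isolation. Of 19 further class I heavy chains on the array, 14 were lower in medullary LCM and 12 in medullary FACS samples (medians −0.56 and −1.09), and none of the 17 that passed the filter was called. H2-Q8, a Qa-2 family gene, differed by 0.84 in LCM and −2.97 in FACS, and H2-Q2 by −0.69 and −1.96. The other 7 were higher in medullary FACS samples, up to H2-M9 at 4.47. Neither these 7 nor the 12 lower ones overlapped in FACS, where 43% of all genes tested were higher and 26.7% lower without overlap. The summed signal of the list was 1192 to 1496 in medullary and 943.8 to 992.9 in subcapsular FACS samples. The standard proteasome list had 6 of 10 lower in LCM and 8 of 10 in FACS (medians −0.53 and −0.80), and its catalytic subunit gene Psmb5 differed by 1.21 and −3.35. Of 10 other endoplasmic reticulum factors, 9 were lower in LCM and 10 in FACS, with medians of −0.91 and −2.87. Among them the disulphide isomerase Pdia4 was called lower in FACS than LCM (−2.60, limma adjusted p = 0.0382). Of 6 genes of class II proteolysis and turnover, 3 were lower in LCM and 4 in FACS (medians 0.09 and −2.04). The other 2 in FACS, March1 and March8, were higher (0.78 and 1.51). None of the 6 overlapped in FACS, where 43% of all genes tested were higher and 26.7% lower without overlap. Among them cathepsin S (Ctss), which degrades the invariant chain, differed by −1.56 in LCM and −2.44 in FACS and was called lower in FACS than LCM (−2.46, limma adjusted p = 0.012), as was cathepsin B (Ctsb, −2.70, limma adjusted p = 0.0157).

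Factors of the class II promoter other than the 3 regulators had 3 of 6 lower in LCM and 4 of 6 in FACS. Nfya, a subunit of NF-Y, differed by 0.88 in LCM and −6.09 in FACS (limma adjusted p = 0.0645), and Rfxap, a partner of Rfx5, by −1.17 and −5.62 (limma adjusted p = 0.0645 in FACS). Of 8 genes of the interferon gamma route, 4 were lower in LCM and 7 in FACS (medians −0.35 and −2.34), with the receptor chain Ifngr2 at −1.83 and −6.23. The 6 costimulation genes showed no common direction, with 2 lower in each isolation. Their member Cd274, the checkpoint ligand PD-L1, differed by 0.80 in LCM and −6.21 in FACS, and the difference of differences was called (−7.00, limma adjusted p = 0.0422).

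The scale of the arrays moved the size of these differences. Across 6 scalings the LCM median of the 32 genes ran from −2.02 to −0.34, and relative to the median of all genes tested from −1.15 to −0.40. In LCM, class I molecules and class II genes kept 7 of 7 and 10 of 10 lower under each of the 6 scalings, but their size moved. The class I median, −1.04, was −0.26 with quantile normalization and in the deposited log2 table. It was −0.30 with the percentile over probes detected throughout and −1.99 with the median as scale. The class II median, −1.48, was −0.66 with quantile normalization, −0.75 with that percentile and −2.43 with the median as scale. The peptide supply genes turned, with medians of 0.28 under quantile normalization, 0.36 with the percentile taken over those probes that were detected throughout, and 0.26 in the authors' deposited log2 table. In FACS the median ran from −2.42 to −1.60, and −2.64 to −2.03 relative to all genes tested, with 11 of 12 peptide supply genes lower each time. With medullary FACS replicate 6 left out, 9 of 10 class II genes were lower in FACS. Without each LCM array in turn, class II stayed at 10 of 10 and class I at 7 of 7 lower.

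**Figure D5:**
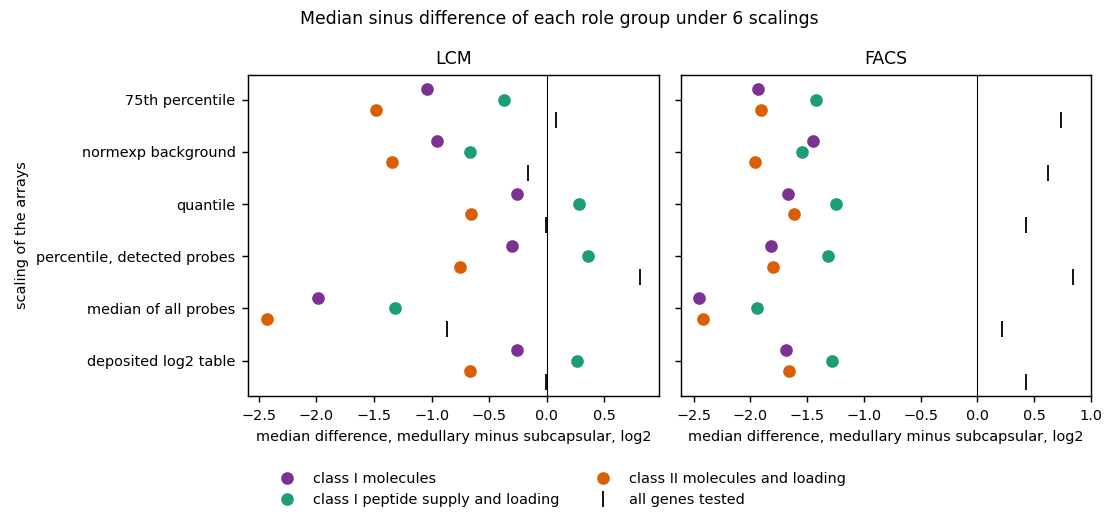
Median medullary minus subcapsular difference (log2) of the class I, peptide loading and class II genes (points) and of all genes tested (ticks) under 6 scalings of the arrays, in LCM and FACS. The peptide loading median lies right of 0 in LCM under 3 of the scalings, and class I and class II medians lie left of 0 in every case.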

How the data were processed

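RNA of 14 samples was amplified and hybridised to 1-colour Agilent mouse arrays, per the labels' protocols. The authors deposited scanner output of Agilent Feature Extraction 10.7.3.1, per the file headers, whose processed spot intensity (background-corrected, linear) was used here, and a log2 table whose making is not given in the sources used here. The deposited log2 columns each had a median of 5.43 and served as an alternative, their centring being unknown. Outlier spots were dropped, spots of a probe averaged, and log2 intensity taken minus the 75th percentile of each array. Of 55681 probes, each gene kept the one with the highest mean. Genes entered a test if well above background on 3 of 5 LCM arrays or both FACS arrays of a sinus. Sinuses were compared within LCM and within FACS by separate fits, and isolations and the interaction in 1 fit over 14 arrays with array weights per isolation (LCM 0.87, FACS 1.4), in limma 3.58.1 (R 4.3.3) with Benjamini-Hochberg adjustment over all genes tested at 0.05. Code was tested on simulated data. Tables and plots used the data.table package, version 1.17.8, and Python 3.11.15, pandas 2.3.3 and matplotlib 3.10.9. Array number limits precision.

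A signal not above background on all arrays of a group gave a bound, with each array's dimmest detected signal in its place. All 32 members were named, in LCM and FACS. Members and gene lists were chosen with earlier results of these data known. Replicate numbers run alike in both sinuses, but deviations of same-numbered arrays did not go together (correlations −0.02 to 0.005 in LCM and −0.011 in FACS), so they were not treated as pairs. Promoter windows and gene names came from RefSeq (GRCm38.p6), where the symbol of all 32 probes matched, and probe positions (mm9) from the scanner files. H2-T22, H2-L, Sppl2a, Ccl21a, Adgre1 and Ackr1 were not matched by name and not analysed here. Alternatives were other scalings, filters, probe rules, array weights, batch blocks and leaving out each array.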

Additional observations from a re-analysis of the deposited data

Results flagged for a closer look

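Within groups of 5 arrays, 4 of 64 gene and group combinations had 1 array far from the others, and chance flags about 1 in 20 groups. Tap1 read −4.58 on subcapsular LCM replicate 2, not well above background, where the other subcapsular LCM arrays read 1.85 to 3.25. Psme1 read −4.90 on the same array, against 2.22 to 3.99 on the others. Canx read −5.69 on medullary LCM replicate 5, against 0.16 to 1.88, and Psmb10 read 2.84 on that array, against 0.58 to 0.90. The sinus difference of Psmb9 differed between isolations by the interaction test (−4.43, limma adjusted p = 0.0478).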

How the results depend on the processing

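Calls rested on scale and filter. In LCM, 48 genes were called (23 to 104 leaving out 1 array), and 8 with normexp correction, 15 with quantile normalization, 225 with the percentile over probes detected throughout, 8 with the median as scale, 16 in the deposited table, 104 with a stricter filter, 127 with slide as block, 14 with row as block and 248 on slide 1 alone. The LCM median of the 32 genes, −1.07, was −0.41 with quantile normalization, −0.34 with that percentile, −2.02 with the median as scale and −0.42 in the deposited table, and lower peptide supply genes numbered 4, 5 and 4 in place of 8 under quantile, percentile and deposited values. In FACS, limma called 0 genes (8829 at an unadjusted p under 0.05), and 1562, 1813 and 4509 with the median as scale, with trend and robust moderation and in 1 fit over 14 arrays, which called 4, 10 and 8 of the 32 genes, and the median of the 32 was −2.42 with the median as scale. For FACS minus LCM, genes called were 1147 (613 to 1665 leaving out 1 array), 747 without array weights and 0 on slide 2 alone. Of the 32, 2 were called (1 to 3 leaving out 1 array), 4 with normexp, 1 with quantile, percentile, deposited or row-block values, 7 with trend and robust moderation and 0 on slide 2 alone, and their median of −0.68 was −1.17 with the median as scale and −1.16 on slide 2 alone. Nlrc5 turned to 0.15 with the mean of probes (−1.35 to 0.36 leaving out 1 array). For the interaction, 386 genes were called (11 to 1278 leaving out 1 array), 694 with normexp, 1155 with quantile, 197 with the median as scale, 1143 in the deposited table and 109 without weights. Of the 32, 1 was called (0 to 2 leaving out 1 array), 3 with normexp, percentile, stricter filter or trend and robust moderation, 4 with quantile or deposited values, and 0 with the median as scale, no filter, the mean of probes or no weights. Their median of −0.87 (−1.02 to −0.36 leaving out 1 array) was −1.36 with quantile, −1.49 with percentile and −1.39 with deposited values, and Cd74 turned to −0.20 with quantile and deposited values. With the replicate block, 0 genes were called in LCM and 0 in FACS, the LCM median of the 32 stayed −1.07, and Tap1 in FACS had a limma adjusted p of 0.171. The cause of these moves was not tested. With 2 FACS arrays per sinus, and probes near background for Tap1, H2-M3, Mr1 and Rfx5, single differences carry wide errors.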
